A study of Mus musculus with 155 samples.

Results

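Lysine 27 of histone H3 (H3K27) can carry either a methyl or an acetyl mark, and the enzymes that remove and add these marks were followed here through their mRNA. Kdm6a (UTX) and Kdm6b (JMJD3) take methyl groups off H3K27, Ep300 (p300) and Crebbp (CBP) are the paralogous acetyltransferases that write H3K27ac at enhancers and promoters, and Hdac1, Hdac2 and Hdac3 are deacetylases. Hdac1 and Hdac2 are paralogs that work in the SIN3, NuRD and CoREST complexes, Hdac3 works in the NCoR/SMRT complex, and Kdm6a works beside the methyltransferases Kmt2c and Kmt2d. In embryonic stem cells, genes that are poised for differentiation carry H3K27 methylation laid down by PRC2. A lysine that has been replaced by methionine or leucine can be neither methylated nor acetylated at this position.

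These 7 enzymes were chosen by name, and all 7 were found among the 55471 genes of each count table, with 1 gene each. The cells were KH2 mouse embryonic stem cells (ESCs), which hold a doxycycline (Dox)-inducible locus with 1 extra copy of SNAP- and HA-tagged H3.3, beside the cells' own H3 genes. The line WT-H3.3 expresses the unmutated protein, H3.3K27M the methionine form and H3.3K27L the leucine form, and each line came from selected colonies. All groups received Dox, also the controls. The ESC libraries came from the 3 lines and from WT-H3.3 cells given GSK343, an inhibitor of the PRC2 methyltransferase, with 2 replicates at each of 4, 8, 24 and 72 h of Dox, which makes 8 libraries per group and 32 in all. The RA libraries came from cells of the 3 lines differentiated with retinoic acid (RA), with 1 library per line at 24 h and 1 at 72 h of Dox (6 in all), and there the time of Dox and the stage of differentiation cannot be told apart. The OPC libraries came from WT-H3.3 and H3.3K27M cells differentiated toward oligodendrocyte progenitor cells, with 1 library per line at 24 h and 1 at 72 h of Dox (4 in all). Per the methods, ESC replicates were biological and made weeks apart. With 1 library per line and time in RA cells and OPCs, a p-value there measures the spread between Dox times or lines.

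RefSeq (GRCm38.p6) gave a promoter window, from 250 bases before to 50 after the start, for Kdm6a, Ep300, Crebbp and Hdac2. The windows of Ep300 and Crebbp are shown because Crebbp was higher and Ep300 lower in OPCs than in ESCs, and that of Hdac2 because it differed between the OPC lines. Capitals mark the GC box GGGCGG on either strand, where overlapping matches were joined, and sequences run 5′ to 3′ on the gene's strand.
Ep300, chr15:81585964-81586263, plus: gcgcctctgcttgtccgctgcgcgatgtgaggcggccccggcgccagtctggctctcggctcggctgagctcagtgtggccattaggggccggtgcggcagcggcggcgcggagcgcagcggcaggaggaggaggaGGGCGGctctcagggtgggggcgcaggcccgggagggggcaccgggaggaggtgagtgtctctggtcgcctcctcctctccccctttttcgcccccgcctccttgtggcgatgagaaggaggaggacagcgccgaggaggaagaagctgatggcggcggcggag
Crebbp, chr16:4213355-4213654, minus: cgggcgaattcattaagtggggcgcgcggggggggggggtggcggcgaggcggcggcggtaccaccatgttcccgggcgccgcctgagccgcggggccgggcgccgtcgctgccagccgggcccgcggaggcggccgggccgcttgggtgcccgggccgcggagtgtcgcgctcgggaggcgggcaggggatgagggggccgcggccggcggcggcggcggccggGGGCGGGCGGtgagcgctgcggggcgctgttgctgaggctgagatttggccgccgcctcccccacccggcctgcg
Hdac2, chr10:36974294-36974593, plus: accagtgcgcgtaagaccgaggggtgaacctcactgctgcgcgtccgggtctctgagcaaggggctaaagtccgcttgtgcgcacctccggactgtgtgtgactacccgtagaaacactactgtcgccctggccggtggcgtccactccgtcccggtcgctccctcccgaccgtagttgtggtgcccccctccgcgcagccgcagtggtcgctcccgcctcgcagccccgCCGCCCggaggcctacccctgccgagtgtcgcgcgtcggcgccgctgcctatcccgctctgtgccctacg
The GC box occurred once in the Ep300 window, in 2 overlapping copies in that of Crebbp and once in that of Hdac2, and 35.7% of 32851 promoter windows of the same length held it. All 3 windows are rich in CpG, with 30 CpG in Ep300, 49 in Crebbp and 36 in Hdac2 against a median of 7 over all windows. None of the 3 held CCAAT or TATAAA on either strand, which were present in 37.4% and 13.6% of all windows.

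Values are given as CPM (counts per 1000000 counts of a library) scaled by TMM over all 42 libraries, a scale on which 1 gene is compared between libraries. Total counts ran from 68378 to 21161392 in ESCs, from 2239137 to 22269533 in RA-treated cells and from 7499258 to 12387113 in OPCs. The lowest was the library of H3.3K27L ESCs at 72 h, replicate 2, in which the 7 enzymes had only 4 to 33 counts each. In the other 41 libraries each had at least 46 counts. The ESC markers Pou5f1 and Nanog were at 325 CPM or more in every ESC library and at 5.16 CPM or less in every other library. Other ESC markers were not all lost. Of the 7 analysed, 3 (Klf4, Dppa5a and Tbx3) reached 10 CPM in RA cells at each time. In WT-H3.3 OPCs 2 did so, and in H3.3K27M OPCs 1. Tbx3 was at 117 to 208 CPM in RA cells at 24 h, within its ESC range of 94.8 to 410 CPM. The RA-treated cells are labelled as neural progenitors. Of the 7 neural progenitor markers analysed, 3 reached 10 CPM in these 6 libraries, while Fabp7, Neurog2 and Hes5 stayed at 1.21 CPM or less, and 4 of 6 endoderm markers reached 10 CPM at each time, with Gata6 and Sox17 at 45.3 CPM or more, Ttr at 5.29 CPM or less and Afp at 2.13 CPM or less. RA-response genes were present, with Cyp26a1 at 233 to 970 CPM. In the OPC libraries the OPC markers Olig1 and Olig2 were at 160 CPM or more, though Olig2 was also at 11.4 to 47.0 CPM in ESCs. Cspg4, Nkx2-2 and Bcas1 were at 8.27 to 127 CPM. Pdgfra was at 24.3 CPM or less, Sox10 at 3.54 CPM or less and Gpr17 at 0.965 CPM or less.

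The libraries were not all alike in how they counted genes. The methods name a QuantSeq 3′ kit and a KAPA mRNA kit without assigning them to libraries. The Spearman coefficient between CPM and annotated exon length over 12665 genes was 0.280 to 0.326 in the RA libraries at 24 h, 0.116 to 0.127 in those at 72 h, 0.145 to 0.154 in OPCs and 0.0494 to 0.211 in ESCs. In every RA library at 24 h and all 31 ESC libraries with more than 1000000 counts, 5162 genes exceeded 20 CPM. Of these, 28 (0.542%) stayed under 2 CPM in every RA library at 72 h and every OPC library. With the same limits in the other direction it was 16 of 5022 genes (0.319%). Actin gamma, Actg1, which every cell uses, was among the 28. It was at 91.5 CPM or more in the ESC and 24 h RA libraries and at 1.22 CPM or less in the others. Both sets of genes were picked by this division of the libraries, so they describe it and do not test it. Other divisions were not counted. Below, ESCs and RA cells at 24 h are called 1 kind of library, and RA cells at 72 h and OPCs another. Cell state and library preparation cannot be told apart in comparisons between these 2 kinds of libraries. The length coefficient grouped the libraries otherwise, with RA cells at 24 h above every other library. State and library preparation therefore cannot be told apart between RA cells at 24 h and ESCs either. Comparisons of lines within ESCs and within OPCs each stay within 1 of the 2 kinds of libraries. In the length coefficient the OPC libraries were alike, but the ESC groups were not balanced. Its median was 0.145 in WT-H3.3, 0.183 in H3.3K27M, 0.195 in H3.3K27L and 0.100 with GSK343, with overlapping ranges. In such bulk samples fewer cells of a type and less RNA per cell cannot be told apart either.

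By position in NCBIM37 (mm9), Kdm6a lies at chrX:17739701-17857062 on the plus strand and Kdm6b at chr11:69212010-69227177 on the minus strand. Ep300 lies at chr15:81415781-81482507 (plus) and Crebbp at chr16:4084048-4213404 (minus). Hdac1 is at chr4:129193348-129219957 (minus), Hdac2 at chr10:36694350-36721695 (plus) and Hdac3 at chr18:38095498-38114642 (minus). Counts cover whole genes. Of the exon bases of Kdm6b, 4.11% are shared with a noncoding transcript on the opposite strand, and of those of Ep300, 0.481% with a microRNA on the same strand. Hdac1 has a near-identical copy, Gm10093 on chr17:78890879-78892881, which matches 2004 bases of its transcript at 98.8% identity. Over the 42 libraries 2915 counts were assigned to this copy and 98096 to Hdac1, so part of the Hdac1 reads may be counted elsewhere or lost. At the limits of this search, 100 bases at 97% identity, Kdm6a shares 1 stretch of 137 bases at 98.5% identity with its Y-linked paralog Uty.

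In undifferentiated ESCs the mRNA of these enzymes was not shown to differ between lines. The question was whether an H3.3 that cannot be modified at lysine 27, or PRC2 inhibition, is accompanied by a change in the enzymes that act on this residue. With the edgeR quasi-likelihood test and Benjamini-Hochberg adjustment over all 14076 genes, called at an adjusted p under 0.05, 0 of 7 enzymes passed for H3.3K27M versus WT-H3.3 over all times, where 0.0142% of all genes were called. For H3.3K27L versus WT-H3.3 it was 0 of 7 beside 8.11% of all genes, for GSK343 0 of 7 beside 0%, and for H3.3K27M versus H3.3K27L 0 of 7 beside 11.1%. At an unadjusted p under 0.05 there was 1 enzyme in each of the first 3 comparisons and 0 in the last, beside 1612, 3247, 620 and 3456 of all genes in the same order. DESeq2 called 0 enzymes in each, beside 7, 866, 0 and 1188 genes. With the replicate number as a block, 0 of 7 were called in H3.3K27M while the share of all genes became 0.242%. The 3 comparisons with WT-H3.3 share their control libraries.

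Kdm6b, whose transcription is known to respond to signals, had the largest fitted difference of the 7 in both mutants. Its lowest, median and highest levels were 46.1, 61.1 and 85.1 CPM in the 8 WT-H3.3 libraries, 55.0, 75.2 and 117 CPM in H3.3K27M, 54.2, 81.7 and 103 CPM in H3.3K27L and 39.3, 55.3 and 68.4 CPM with GSK343. All 4 ranges overlapped. The log2 fold change over WT-H3.3 was 0.36 ± 0.16 (SE) in H3.3K27M (adjusted p = 0.388) and 0.39 ± 0.17 in H3.3K27L (adjusted p = 0.166).

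Ep300 ran from 95.6 through a median of 162 to 214 CPM in WT-H3.3 cells, from 108 through 180 to 209 CPM in H3.3K27M, from 127 through 218 to 259 CPM in H3.3K27L and from 74.4 through 117 to 224 CPM with GSK343. The 4 ranges overlapped, and the spread within each was wider than the difference between the medians of WT-H3.3 and either mutant. In H3.3K27L the log2 fold change was 0.37 ± 0.18 (adjusted p = 0.226). Without 1 library, WT-H3.3 at 8 h replicate 2, Ep300 (log2 fold change 0.54, adjusted p = 0.0461) and Kdm6b (0.51, adjusted p = 0.0483) were called in H3.3K27L. Crebbp, its paralog, had medians of 84.3 CPM in WT-H3.3, 79.9 in H3.3K27M, 96.7 in H3.3K27L and 80.9 with GSK343, within a range of 44.6 to 113 CPM over all 32 libraries. It was called between both mutants only without H3.3K27M at 72 h replicate 1 (log2 fold change -0.40, adjusted p = 0.0442).

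Kdm6a had a median of 75.8 CPM in WT-H3.3 (57.4 to 108), 76.8 in H3.3K27M (59.5 to 106), 94.5 in H3.3K27L (70.2 to 117) and 58.9 with GSK343 (46.9 to 87.0). Its Y-linked paralog Uty, whose protein has little demethylase activity, was low in the H3.3K27L line. In H3.3K27L ESCs Uty was between 0 and 6.26 CPM, while the 24 other ESC libraries held 30.8 to 61.1 CPM, without overlap. Uty fell by 4.24 ± 0.34 on the log2 scale in H3.3K27L against WT-H3.3 (adjusted p = 4.89e-08), whereas Kdm6a had a log2 fold change of 0.26 ± 0.14 (adjusted p = 0.266). In RA-treated cells Uty was at 0.605 and 2.32 CPM in H3.3K27L and at 15.0 to 53.2 CPM in the other lines. The other Y-linked markers moved with it. All 4 (Ddx3y, Eif2s3y, Kdm5d and Uty) were lower in H3.3K27L than in the 24 other ESC libraries without overlap, with sums of 0 to 23.5 and 171 to 283 CPM, and in RA-treated cells the sums were 7.56 and 9.94 CPM against 134 to 200 CPM.

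Among the deacetylases no median in a mutant or with GSK343 lay outside the WT-H3.3 range. Hdac1 had medians of 350 CPM in WT-H3.3 (285 to 482), 344 in H3.3K27M (293 to 425), 313 in H3.3K27L (163 to 443) and 353 with GSK343 (255 to 453). Hdac2 had medians of 330, 327, 340 and 317 CPM in the same order, within 248 to 447 CPM. Hdac3 had medians of 82.2, 81.9, 78.2 and 80.4 CPM, within 54.2 to 101 CPM. The log2 fold changes of these 3 genes against WT-H3.3 lay between -0.18 and 0.10 over the 3 comparisons. Over all 7 enzymes, the 95% intervals of the log2 fold change (normal approximation) spanned -0.39 to 0.68 for H3.3K27M, -0.47 to 0.73 for H3.3K27L and -0.66 to 0.23 for GSK343 against WT-H3.3, so changes of 2-fold lay outside them.

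The late times alone gave the same counts. At 24 and 72 h, 0 of 7 enzymes were called for H3.3K27M (background 0%), H3.3K27L (0.732%) and GSK343 (0%) against WT-H3.3, and 0 at an unadjusted p under 0.05. Nor was any enzyme called between late (24 and 72 h) and early (4 and 8 h) Dox times in WT-H3.3 cells, where 0.121% of all genes were. DESeq2 likewise called 0 of 7 in these 4 comparisons.

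Within ESCs the enzymes varied with the length coefficient of the library. In the 10 libraries of the lowest coefficient (0.0494 to 0.105) Ep300 was at 74.4 to 137 CPM, and in the 10 of the highest (0.194 to 0.203) it was at 199 to 259 CPM, without overlap. Kdm6b was at 39.3 to 60.6 against 65.3 to 117 CPM, and Kdm6a at 46.9 to 68.5 against 75.6 to 117 CPM. The short mRNA of Hdac1 went the other way, from 342 to 482 CPM down to 255 to 341 CPM. Crebbp (59.0 to 88.9 against 78.2 to 113 CPM), Hdac2 (313 to 425 against 262 to 334 CPM) and Hdac3 (76.1 to 97.3 against 62.1 to 82.2 CPM) overlapped between both sets. The coefficient was computed from the CPM of the same libraries, so long and short genes part between these sets in some measure by construction. The share of all genes without overlap was not counted, so these ranges show nothing particular to the enzymes. The 10 libraries of the lowest coefficient held 3 of WT-H3.3, 2 of H3.3K27M, 5 with GSK343 and 0 of H3.3K27L. With the length trend removed from each library, the log2 fold changes in H3.3K27L were 0.33 for Ep300 and 0.34 for Kdm6b (adjusted p = 0.106 and 0.112).

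**Figure D1:**
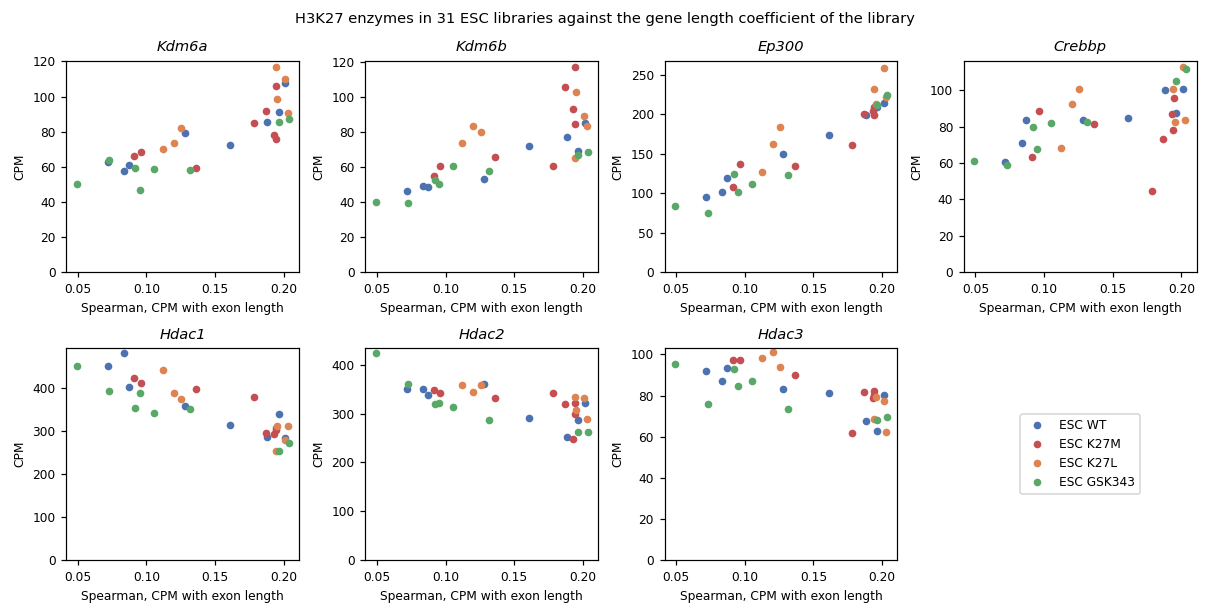
CPM of each enzyme (vertical axis, from 0) in the 31 ESC libraries with more than 1000000 counts against the Spearman coefficient of CPM with exon length in that library (horizontal axis). Colors mark the 4 ESC groups, and points are libraries. Ep300 climbs from 74.4 CPM on the left to 259 CPM on the right, while Hdac1 declines.

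In RA-treated cells neither mutant was shown to change the 7 enzymes. The model compared lines within a Dox time. For H3.3K27M against WT-H3.3 0 of 7 were called (background 0.0163% of 12265 genes), and for H3.3K27L 0 of 7 (background 7.03%). At an unadjusted p under 0.05 both counts were 0, beside 754 and 2640 of all genes, and DESeq2 called 0 enzymes beside 28 and 614 genes. The log2 fold changes lay between -0.00 and 0.28 for H3.3K27M and between -0.24 and 0.05 for H3.3K27L. Without WT-H3.3 at 72 h, Ep300 was called in H3.3K27L (log2 fold change -0.50, adjusted p = 0.0438). This design is small: on simulated counts for H3.3K27M against WT-H3.3, 43% of genes changed 2.5-fold and 1% of those changed 1.5-fold were called. The simulated dispersion (spread between libraries) was above the 0.0177 fitted to the RA libraries. These percentages therefore do not measure the power of this comparison.

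In OPCs, H3.3K27M cells held more Hdac2 and Hdac3 mRNA and less Ep300 mRNA than the WT-H3.3 line. Of the 7 enzymes 4 were called, where 51.5% of 12511 genes were called, so the share of called enzymes is near that of all genes. None of the 4 exceeded 2-fold, which 28% of all genes did.

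Hdac2 was at 289 CPM (24 h) and 287 CPM (72 h) in the H3.3K27M libraries and at 154 and 152 CPM in the WT-H3.3 libraries. The 2 lines did not overlap, and the spread between Dox times was small beside the difference. The log2 fold change was 0.92 ± 0.12 (adjusted p = 0.000107). Hdac3, the catalytic subunit of NCoR/SMRT, was at 52.6 and 59.5 CPM in H3.3K27M and at 36.5 and 29.4 CPM in WT-H3.3, a log2 fold change of 0.77 ± 0.16 (adjusted p = 0.00205). Hdac1 was at 33.7 and 34.0 CPM against 28.2 and 27.8 CPM. Its log2 fold change of 0.28 ± 0.16 did not pass the test (adjusted p = 0.165), although the lines did not overlap.

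Ep300 was at 72.9 and 76.9 CPM in H3.3K27M OPCs and at 114 and 113 CPM in WT-H3.3 OPCs. It fell by 0.59 ± 0.13 on the log2 scale (adjusted p = 0.00303). Crebbp did not share this difference, with 232 and 231 CPM against 227 and 244 CPM (log2 fold change -0.02 ± 0.13, adjusted p = 0.925, 95% interval -0.26 to 0.23). Among the demethylases, Kdm6b was at 95.1 and 96.3 CPM against 132 and 112 CPM, and it fell by 0.34 ± 0.13 on the log2 scale at an adjusted p of 0.0493. This call was lost when any 1 of the 4 libraries was left out (adjusted p = 0.0527 to 0.308), with DESeq2 (0.0859) and with no filter on low counts (0.0541). Kdm6a was at 21.3 and 23.8 CPM against 30.8 and 28.0 CPM and did not pass the test (adjusted p = 0.0879). In 6 of 7 enzymes, all but Crebbp, the lines did not overlap, which was so for 76.5% of all genes tested.

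The OPC lines also differed in cell type markers, whose part in these differences was not tested. The summed level of 8 OPC markers was 1890 to 2116 CPM in H3.3K27M and 554 to 584 CPM in WT-H3.3, with 5 and 6 of the 8 reaching 10 CPM. Olig1 (610 to 714 against 160 to 173 CPM) and Olig2 (1023 to 1075 against 288 to 348 CPM) made up most of the sum. Pdgfra (0.591 to 0.839 against 16.3 to 24.3 CPM), Sox10 (0.148 to 0.559 against 2.02 to 3.54 CPM) and Gpr17 (0 to 0.148 against 0.918 to 0.965 CPM) were lower in the H3.3K27M libraries. Fibroblast markers summed to 8.95 to 15.4 CPM and to 586 to 638 CPM, with 0 and 6 of 6 reaching 10 CPM. The astrocyte marker Gfap was at 0.295 CPM or less in H3.3K27M and at 25.0 to 35.3 CPM in WT-H3.3, and the neuronal Stmn2 at 0.886 CPM or less and at 118 to 167 CPM. Of the same lists, Aqp4, Aldh1l1, Dcx, Snap25 and Elavl3 were also lower in H3.3K27M. The astrocyte markers Slc1a3 (898 to 1246 against 783 to 794 CPM) and S100b (27.2 to 36.1 against 18.4 to 21.3 CPM) were higher. So was the neuronal Map2 (1635 to 1782 against 599 to 604 CPM). The lists summed to 934 to 1292 against 875 to 882 CPM for 5 astrocyte markers (2 and 4 reaching 10 CPM), 1653 to 1800 against 782 to 801 CPM for 5 neuron markers (2 and 4), 4291 to 5861 against 7602 to 7675 CPM for 7 neural progenitor markers (6 and 5), and 8.12 to 9.64 against 74.2 to 88.5 CPM for 6 endoderm markers (0 and 3). Of 5 myelin markers 1 reached 10 CPM in each line, with sums of 32.6 to 34.5 and 23.7 to 27.6 CPM, and Mag was at 0 in both.

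The H3.3K27M difference in OPCs was then set against that in ESCs, as the difference between both differences in the model of 42 libraries. It was called for 2 of 7 enzymes, where 21.2% of 16478 genes were called. For Hdac2 it was 0.92 ± 0.22 on the log2 scale (adjusted p = 0.00149), beside a difference of 0.00 in the ESC model. For Hdac3 it was 0.72 ± 0.24 (adjusted p = 0.0281), beside 0.05 in the ESC model. The Hdac3 call was lost without H3.3K27M OPCs at 24 h (adjusted p = 0.0614), without H3.3K27M OPCs at 72 h (0.168), without WT-H3.3 OPCs at 72 h (0.202) and with no filter on low counts (0.12). For Ep300 it was -0.69 ± 0.43 (adjusted p = 0.275) and for Kdm6b -0.71 ± 0.32 (adjusted p = 0.119), neither of which passed the test.

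The plot of levels by group shows each enzyme over the 42 libraries. Per the methods, RA cells and OPCs came from separate differentiation protocols, so RA cells are not an earlier stage of the OPCs. Against ESCs, 5 of 7 enzymes were called in RA cells at 24 h (background 69.3% of 16478 genes), 6 of 7 in RA cells at 72 h (74.8%) and 7 of 7 in OPCs (84.5%). Between OPCs and RA cells at 72 h, whose libraries were alike in the counting pattern described above, 4 of 7 were called (46.8%). Between RA cells at 72 h and 24 h, fitted within lines, 6 of 7 were called (69.4% of 12265 genes). Most genes were called in 4 of these 5 comparisons, and the counts show nothing particular to the enzymes. With RLE scaling in place of TMM the median log2 fold change of all genes moved from -0.27 to 0.10 in OPCs against ESCs, from -0.21 to 0.20 in RA cells at 72 h against ESCs and from 0.00 to 0.15 in RA cells at 24 h against ESCs.

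**Figure D2:**
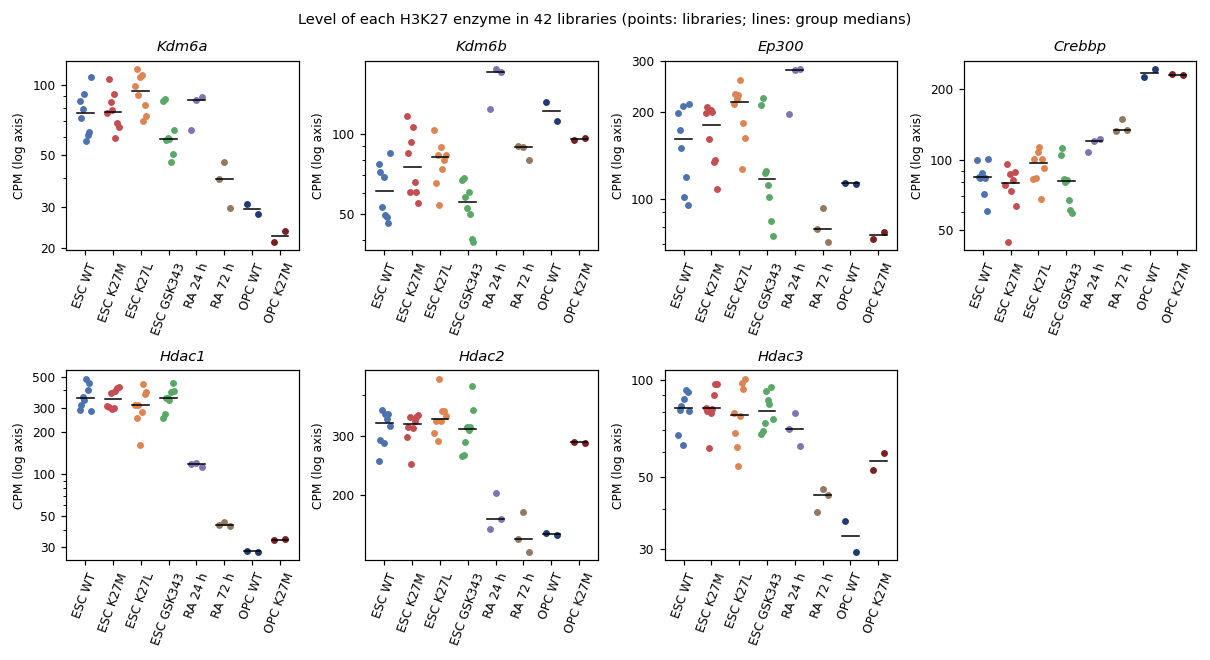
TMM-scaled CPM (log axis) of each enzyme in the 8 ESC, RA and OPC groups. Points are libraries and lines are group medians. Hdac1 declines from 163 to 482 CPM in ESCs to 27.8 to 34.0 CPM in OPCs, while Crebbp climbs from 44.6 to 113 CPM to 227 to 244 CPM.

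Crebbp, unlike Ep300, was higher in RA cells at 72 h and in OPCs than in ESCs. It was at 108 (H3.3K27L), 120 (H3.3K27M) and 123 CPM (WT-H3.3) in RA cells at 24 h, at 133, 149 and 134 CPM in the same lines at 72 h, and at 227 to 244 CPM in the 4 OPC libraries. These 3 groups did not overlap, and RA cells at 72 h and OPCs lay above every ESC library. Its log2 fold change over ESCs was 0.48 ± 0.15 (adjusted p = 0.005) in RA cells at 24 h, 0.73 ± 0.15 (4.35e-05) at 72 h and 1.54 ± 0.13 (2.17e-14) in OPCs. At 24 h the value was 0.02 with the length trend removed (adjusted p = 0.904), while in OPCs it lay between 1.54 and 1.91 under 6 alternatives. Crebbp was also higher in OPCs than in RA cells at 72 h, by 0.75 ± 0.20 (adjusted p = 0.00198). This call was kept under all 6 alternatives and without any 1 of the 42 libraries. From 24 to 72 h in RA cells it rose by 0.49 ± 0.13 (adjusted p = 0.00384). That call was lost without either H3.3K27M library (adjusted p = 0.0792 and 0.0886).

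Ep300 was at 197 (H3.3K27L), 281 (H3.3K27M) and 282 CPM (WT-H3.3) in RA cells at 24 h, and at 78.9, 93.3 and 71.1 CPM at 72 h. The times did not overlap, and Ep300 fell by 1.38 ± 0.15 on the log2 scale between them (adjusted p = 4.08e-06). With the length trend removed it fell by 0.70 (adjusted p = 0.000328). Against ESCs it was higher in RA cells at 24 h (log2 fold change 0.53 ± 0.22, adjusted p = 0.0307), but with the length trend removed the value was -0.13 (adjusted p = 0.403). The call at 24 h was also lost without H3.3K27M (adjusted p = 0.108) or WT-H3.3 (0.106). In RA cells at 72 h and in OPCs Ep300 was lower than in ESCs, by 1.11 ± 0.26 and 0.83 ± 0.22 in fitted log2 units (adjusted p = 0.00023 and 0.000885). OPCs and RA cells at 72 h did not differ beyond their spread (log2 fold change 0.18 ± 0.30, adjusted p = 0.675).

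The ratio of the paralogs within a library does not depend on scaling between libraries. It can still depend on how a library counts long and short genes. Reads assigned to the copy of Hdac1 can also change the ratio of Hdac2 to Hdac1. The part of either was not tested. Per kilobase of exon, the ratio of Crebbp to Ep300 counts was 0.415 to 1.19 in ESCs and 0.639 to 0.823 in RA cells at 24 h. It was 2.40 to 2.82 in RA cells at 72 h, 2.99 and 3.23 in WT-H3.3 OPCs and 4.49 and 4.76 in H3.3K27M OPCs. The ratio of Hdac2 to Hdac1 was 0.560 to 1.01 in the 31 ESC libraries with more than 1000000 counts and 2.11 in the shallow one (33 and 12 counts). It was 1.02 to 1.30 in RA cells at 24 h, 2.45 to 2.998 at 72 h, 4.19 and 4.20 in WT-H3.3 OPCs and 6.50 and 6.61 in H3.3K27M OPCs. Both ratios were higher in RA cells at 72 h and in OPCs than in every ESC library, and both differed between the 2 kinds of libraries. Within the second kind, both were also higher in OPCs than in RA cells at 72 h, without overlap. Within the first kind, Hdac2 to Hdac1 rose from the 31 deeper ESC libraries to RA cells at 24 h, while Crebbp to Ep300 stayed within the ESC range.

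**Figure D3:**
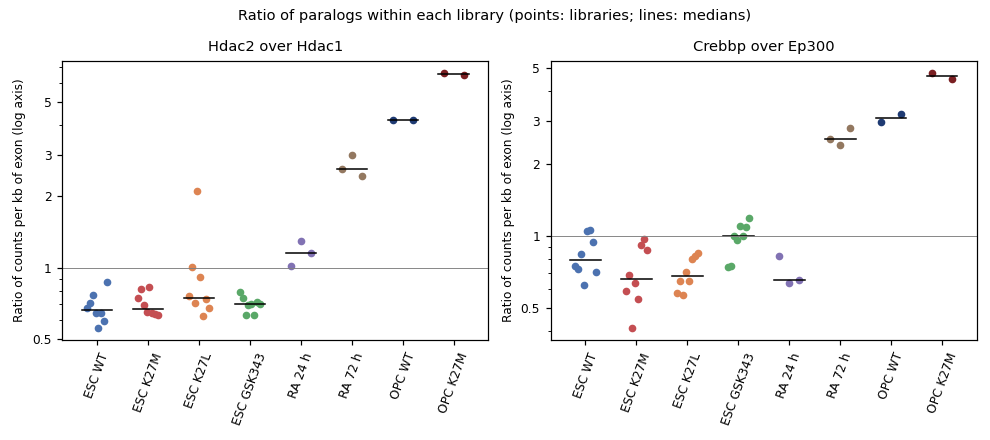
Ratio of Hdac2 to Hdac1 (left) and of Crebbp to Ep300 (right), as counts per kilobase of annotated exon within each library, on a log axis. Points are libraries, lines are group medians and the grey line marks a ratio of 1. The Crebbp to Ep300 ratio stays at 1.19 or less in ESCs and RA cells at 24 h and is 2.40 or more in the other libraries.

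Hdac1, one of the main nuclear deacetylases of dividing cells, was lowest outside ESCs. It was at 113 to 120 CPM in the 3 RA libraries at 24 h, 42.4 to 45.7 CPM in those at 72 h, 28.2 and 27.8 CPM in WT-H3.3 OPCs and 33.7 and 34.0 CPM in H3.3K27M OPCs, all below every ESC library. RA cells at 24 h, RA cells at 72 h and OPCs did not overlap. It fell by 1.57 ± 0.18 on the log2 scale in RA cells at 24 h against ESCs (adjusted p = 3.65e-10), by 2.99 ± 0.21 at 72 h (8.72e-17) and by 3.54 ± 0.19 in OPCs (2.68e-21). The copy of Hdac1, Gm10093, was at 5.98 to 15.7 CPM in the 31 deeper ESC libraries, 1.89 to 2.45 CPM in RA cells at 24 h and 0.107 CPM or less in RA cells at 72 h and OPCs. Gapdh, which has many processed copies, was at 909 to 2351 CPM in those ESC libraries, 853 to 923 CPM in RA cells at 24 h, 98.0 to 201 CPM at 72 h and 57.3 to 98.8 CPM in OPCs. Both step down, as Hdac1 does, between the 2 kinds of libraries, and their part in the Hdac1 result was not tested. Actb did not step down, with 2131 to 4566 CPM in the same ESC libraries, 3123 to 3967 CPM in RA cells at 24 h, 4781 to 4918 CPM at 72 h and 2972 to 5196 CPM in OPCs. Gapdh, Actb and Actg1 were picked after their values were seen. In OPCs Hdac1 was lower than in RA cells at 72 h by 0.51 ± 0.21 (adjusted p = 0.0425). That call was lost with no filter on low counts (adjusted p = 0.112), with the length trend removed (0.0534) and in 11 of the 42 fits that left out 1 library, with adjusted p between 0.0269 and 0.132 over those fits.

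Hdac2 was at 158 (H3.3K27L), 203 (H3.3K27M) and 169 CPM (WT-H3.3) in RA cells at 24 h and at 147, 178 and 135 CPM at 72 h. It fell by 0.88 ± 0.13 on the log2 scale against ESCs at 24 h (adjusted p = 7.82e-08) and by 1.09 ± 0.13 at 72 h (9.25e-10), without overlap of the groups. RA cells at 72 h and 24 h overlapped and did not differ beyond their spread (log2 fold change 0.04 ± 0.13, adjusted p = 0.79). In OPCs the mean over lines was lower than in ESCs by 0.61 ± 0.11 (adjusted p = 4.7e-06, lost with the length trend removed at 0.113), but the H3.3K27M libraries, at 287 and 289 CPM, lay within the ESC range of 248 to 447 CPM. Against RA cells at 72 h OPCs had a log2 fold change of 0.45 ± 0.15 (adjusted p = 0.0121), which was not called without WT-H3.3 RA cells at 72 h (0.102) or with the length trend removed (0.162).

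Hdac3 was at 62.7 to 79.4 CPM in RA cells at 24 h, within the ESC range, and its log2 fold change of -0.21 ± 0.13 did not pass the test (adjusted p = 0.158). At 72 h it was at 39.0 to 46.0 CPM and in OPCs at 29.4 to 59.5 CPM. It fell by 0.94 ± 0.15 in RA cells at 72 h (adjusted p = 4.3e-07) and by 0.94 ± 0.13 in OPCs (1.07e-08) against ESCs. OPCs and RA cells at 72 h overlapped (log2 fold change -0.00 ± 0.17, adjusted p = 1.00). From 24 to 72 h in RA cells it fell by 0.48 ± 0.14 (adjusted p = 0.0102), a call that did not hold without either H3.3K27L library or either H3.3K27M library (adjusted p = 0.0724 to 0.124) or with the length trend removed (0.0622).

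The demethylases differed from each other. Kdm6b was at 124 (H3.3K27L), 175 (H3.3K27M) and 171 CPM (WT-H3.3) in RA cells at 24 h, above every ESC library, and it rose by 1.08 ± 0.16 on the log2 scale against ESCs (adjusted p = 1.79e-07, 0.68 to 1.24 under 6 alternatives). At 72 h it was at 90.1, 89.0 and 79.7 CPM. The difference from ESCs was then 0.21 ± 0.18 (adjusted p = 0.283) with TMM scaling and 0.64 (adjusted p = 0.0007) with RLE scaling. In OPCs, at 95.1 to 132 CPM, it was higher than in ESCs by 0.61 ± 0.16 (adjusted p = 0.000482), with overlap. It lay above every RA library at 72 h, but the log2 fold change of 0.32 ± 0.23 did not pass the test (adjusted p = 0.255). Kdm6b fell by 0.60 ± 0.14 from 24 to 72 h in RA cells (adjusted p = 0.00252), which was not called with the length trend removed (-0.15, adjusted p = 0.338).

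Kdm6a was at 64.4 (H3.3K27L), 86.2 (H3.3K27M) and 89.0 CPM (WT-H3.3) in RA cells at 24 h, within the ESC range (log2 fold change -0.05 ± 0.17, adjusted p = 0.833). With the length trend removed this value was -0.55 and passed the test (adjusted p = 0.000327). At 72 h it was at 39.6, 46.6 and 29.6 CPM and in OPCs at 21.3 to 30.8 CPM, below every ESC library. It fell by 1.09 ± 0.20 in RA cells at 72 h (adjusted p = 4.38e-06) and by 1.60 ± 0.18 in OPCs (4.88e-11) against ESCs. From 24 to 72 h in RA cells it fell by 0.79 ± 0.17 (adjusted p = 0.00135), again not called with the length trend removed (-0.26, adjusted p = 0.167). OPCs were below RA cells at 72 h by 0.59 ± 0.23 (adjusted p = 0.0279), with overlap, a call lost without H3.3K27L or H3.3K27M RA cells at 72 h (0.0789 and 0.209), without H3.3K27M OPCs at 24 h (0.0854), without WT-H3.3 OPCs at 72 h (0.0601) and with no filter on low counts (0.0898).

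**Figure D4:**
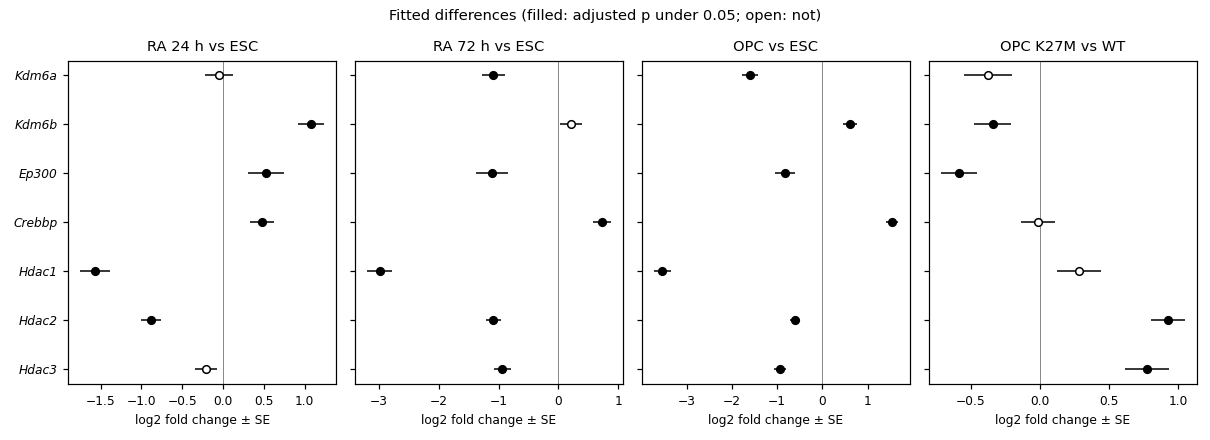
Fitted log2 fold change (horizontal axis, ± SE) of each enzyme in RA cells at 24 h, RA cells at 72 h and OPCs against ESCs, and in H3.3K27M against WT-H3.3 OPCs. Filled points have an adjusted p under 0.05. Crebbp is above 0 in the first 3 panels, and Hdac2 and Hdac3 are above 0 only in the last, which compares the OPC lines.

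Levels of different genes were compared per kilobase of annotated exon. In WT-H3.3 ESCs the order by median CPM per kb was Hdac1 (102), Hdac2 (73.6), Hdac3 (20.4), Ep300 (14.4), Crebbp (11.2), Kdm6a (9.30) and Kdm6b (8.79), where neighbours from Hdac3 on overlapped in range. In WT-H3.3 OPCs it was Hdac2 (34.1), Crebbp (31.3), Kdm6b (17.6), Ep300 (10.1), Hdac3 (8.18), Hdac1 (8.12) and Kdm6a (3.60), where of the neighbours only Hdac3 (7.30 to 9.06) and Hdac1 (8.06 to 8.19) overlapped. Such an order holds only as far as reads cover the transcripts evenly, which a 3′ kit does not do.

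Other enzymes of these classes and partners in their complexes were analysed as a list of 57 genes, of which 51 were tested in the ESC, RA and joint models and 50 in the OPC model. In ESCs 0 passed for H3.3K27M or GSK343. In H3.3K27L, where 2.92% of all genes rose and 5.19% fell, Uty fell and the SIN3 scaffold Sin3a rose (log2 fold change 0.35 ± 0.10, adjusted p = 0.0308). Between H3.3K27M and H3.3K27L Uty and Mta1 were higher (6.33% of all genes) and Kat2b and Sirt1 lower (4.72%). In RA-treated cells 0 were called for H3.3K27M, and for H3.3K27L 1 rose (Sirt2, 0.65 ± 0.17, adjusted p = 0.0436, 3.51% of all genes) and 1 fell (Uty, 3.52%). In H3.3K27M OPCs 18 rose and 7 fell of 50, with a median log2 fold change of 0.23, where 25% of all genes rose and 26.5% fell with a median of 0.00. The 4 of the lowest adjusted p belonged to deacetylases or their complexes, which make up most of the list. Of the 50 tested, 12 are other deacetylases, 16 HDAC1 and HDAC2 partners and 5 HDAC3 partners. Rcor2, of CoREST, rose by 2.63 ± 0.15, Mbd3, of NuRD, by 1.32 ± 0.14 and the class IIa deacetylase Hdac9 by 1.44 ± 0.16, while Chd3, a NuRD helicase, fell by 2.96 ± 0.32 (adjusted p = 2.66e-07, 2.22e-05, 2.56e-05 and 2.19e-05). Of the 5 tested HDAC3 complex partners 3 rose and 0 fell, of 16 HDAC1 and HDAC2 partners 6 rose and 4 fell, and of 7 KDM6A partners 3 rose and 0 fell.

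Across states the list moved in both directions. Against ESCs 19 of 51 rose and 18 fell in RA cells at 24 h, with a median log2 fold change of 0.03, beside 35.4% and 33.9% of all genes and a median of 0.00. At 72 h 15 rose and 27 fell (median -0.66), beside 34.1% and 40.8% of all genes (-0.21). In OPCs 16 rose and 28 fell (median -0.83), beside 37.9% and 46.6% of all genes (-0.27). The class IIa deacetylase Hdac7 was at 2.49 to 13.5 CPM in ESCs, 42.9 to 69.6 CPM in RA cells at 24 h, 71.7 to 138 CPM at 72 h and 173 to 349 CPM in OPCs, and it rose by 5.67 ± 0.17 in OPCs against ESCs (adjusted p = 3.39e-30). Of the 9 other acetyltransferases tested, 0 rose and 6 fell at 24 h, 0 rose and 9 fell at 72 h and 1 rose and 8 fell in OPCs. Among them Kat5 was at 29.3 to 47.6 CPM in RA cells at 24 h and at 0.857 to 1.22 CPM at 72 h, and it is 1 of the 28 genes near 0 in the second kind of libraries. Against RA cells at 72 h, 16 were higher and 18 lower in OPCs (median 0.00), beside 23.3% and 23.5% of all genes (0.00). From 24 to 72 h in RA cells 14 rose and 21 fell (median -0.18), beside 33.2% and 36.2% (-0.07).

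The genes most alike each enzyme were sought by Pearson's r of log2(CPM + 0.5) over the 41 libraries with at least 1000000 counts, among 9092 genes that averaged 10 CPM or more. These libraries differ together in state and in the counting pattern described above, so r is a description. For Hdac1 they were Eif2a (r = 0.99), Bccip (0.99) and Thop1 (0.99), for Hdac2 Cep57 (0.94), Anp32a (0.94) and Tk1 (0.93), and for Hdac3 Stra13 (0.95), Mbd3 (0.95) and Mcrs1 (0.93). For Ep300 they were Prrc2c (0.95), Acap2 (0.94) and Braf (0.94), and for Crebbp Elk4 (0.94), Slc39a9 (0.93) and Taok1 (0.93). For Kdm6a they were Usp53 (0.97), Ahctf1 (0.96) and Fem1c (0.96), and for Kdm6b Mast4 (0.93), Nek9 (0.92) and Mkl1 (0.90). Among the enzymes themselves, Hdac1 had r = 0.87 with Hdac3, 0.80 with Hdac2 and -0.89 with Crebbp, and Ep300 had r = 0.82 with Kdm6a and -0.12 with its paralog Crebbp.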

How the data were processed

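RNA-seq count tables of ESCs, RA-treated cells and OPCs (42 libraries) were analysed. Other assays of the series were not analysed here. The authors deposited raw read counts per gene, after sequencing of single-end libraries (QuantSeq 3′ or KAPA kit, which library not stated) and alignment to mm9, with STAR 2.7.1 named in the submitters' processing notes. Of the 55471 genes listed, 32589 matched an NCBIM37 gene and these held 98.17% of counts. Genes on chromosome 8 (5.78% of counts) were left out, and no pair of replicates was close enough to be 1 library counted again. Groups came from the labels. The OPC columns at 72 h carry replicate number 2 where the labels give 1, and were matched by line and Dox time.

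Counts were filtered with filterByExpr, scaled by TMM and tested with the quasi-likelihood test of edgeR 4.0.16 in R 4.3.3, with Benjamini-Hochberg adjustment over all genes tested and a threshold of 0.05. The ESC model held line or treatment and Dox time (32 libraries), the RA model line and Dox time (6), the OPC model line, with Dox times as replicates (4), and the model across states all 42. Alternatives were DESeq2 1.42.0, RLE scaling, no filter on low counts (at least 1 count), removal of each library's lowess trend of log2 CPM with exon length as an offset, only the libraries compared, Dox times pooled, a replicate block and leaving out each library. The length removal in ESCs, the crossed block, the OPC minus ESC difference, the length coefficients, the paralog ratios and the limits behind the 28 genes were chosen after seeing the data. The 7 enzymes and the gene lists were chosen with earlier results of these data known. From the list of other enzymes and partners, the 4 called genes of the lowest adjusted p were named in each comparison, up to that number, and the 3 most similar genes for each enzyme.

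Replicate numbers of H3.3K27M and WT-H3.3 ESCs deviated together (correlation of replicate differences 0.637, 0.722, 0.616 and 0.718 at 4, 8, 24 and 72 h over 8035 genes), while those of H3.3K27L and WT-H3.3 had -0.609, -0.711, -0.695 and 0.273 and those of GSK343 and WT-H3.3 -0.0134, -0.315, -0.474 and 0.583 at the same times. The crossed block follows the negative H3.3K27L values. Dox times deviated together between the OPC lines (0.282 over 8283 genes). Intervals and counts cover counting error and the spread between libraries only. The procedure was tested on simulated counts: genes changed 2.5-fold were called in 100% (ESC, H3.3K27M against WT-H3.3, 13770 genes), 43% (RA, the same lines, 11975 genes) and 59% (OPC, the same lines, 12383 genes) of cases. The same simulated dispersion was used throughout, above the 0.0177 fitted for RA and the 0.0144 for OPCs. The RA and OPC percentages therefore do not measure the power of those data.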

Additional observations from a re-analysis of the deposited data

Results flagged for a closer look

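Hdac2 was at 447 CPM in the library of H3.3K27L ESCs at 72 h, replicate 2, while the other 7 libraries of this line were at 290 to 359 CPM. This library stood apart from its group by Dixon's test. It held 33 Hdac2 counts and 68378 counts in all. Of the 28 groups tested, about 1 in 20 would be marked by chance.

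The H3.3K27M difference of Hdac2 was larger in OPCs than in ESCs by 0.92 on the log2 scale, and that of Hdac3 by 0.72, in a test of the difference between both differences. The OPC lines also differed in cell type markers, with fibroblast markers summing to 586 to 638 CPM in WT-H3.3 and 8.95 to 15.4 CPM in H3.3K27M. Their part in the result was not tested.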

How the results depend on the processing

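In ESCs 0 of 7 enzymes were called in the 8 comparisons under each alternative, the replicate block included. In OPCs 4 were called with Dox time as the block, beside 59.9% of all genes. With the block the count of all genes called moved from 2 to 34 for H3.3K27M against WT-H3.3 ESCs, from 103 to 202 for H3.3K27L at 24 and 72 h and from 17 to 26 between Dox times in WT-H3.3. With the H3.3K27L numbers of 4, 8 and 24 h crossed, which was added after seeing the data, 2110 in place of 1142 genes were called for H3.3K27L against WT-H3.3. With no filter on low counts 431 genes were called for H3.3K27M in ESCs and 130 in RA-treated cells (2 in each with the filter), 87 for GSK343 (0) and 404 for H3.3K27L at 24 and 72 h (103). With Dox times pooled, 0 in place of 862 genes were called for H3.3K27L in RA-treated cells. With only the libraries compared, 577 in place of 1556 were called between H3.3K27M and H3.3K27L ESCs. With RLE scaling the share of calls that were higher in RA cells at 72 h than in ESCs moved from 45.5% to 57.0%.

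Of the 7 enzymes, 3 in place of 6 were called between RA cells at 72 and 24 h with the length trend removed (67.1% of all genes), 2 in place of 4 between OPCs and RA cells at 72 h with the length trend removed (51.3%) or with no filter (19.9%), and 1 in place of 2 for the OPC minus ESC difference with no filter (7.78%). The difference of Ep300 between RA cells at 24 h and ESCs turned to -0.13 with the length trend removed, and the cause was not tested beyond that construction. Leaving out 1 library at a time gave 0 to 2 enzymes for H3.3K27L and 0 to 1 for H3.3K27M against H3.3K27L in ESCs, 0 to 1 for H3.3K27L in RA-treated cells, 3 to 3 for H3.3K27M in OPCs, 2 to 4 between OPCs and RA cells at 72 h, 4 to 6 between RA times, 4 to 5 for RA cells at 24 h against ESCs and 1 to 2 for the OPC minus ESC difference. It gave 0 in the other ESC and RA line comparisons, 6 for RA cells at 72 h and 7 for OPCs against ESCs. Under the other alternatives 801 single values kept direction and side of the threshold, 12 lost the call, 5 gained it and 1 turned. A change of sign was counted only where a call was made, and 188 uncalled values changed sign. RA and OPC groups hold 1 library per line and time, which limits the smallest change that can be called.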
